A study of Homo sapiens with 6 samples.

Results

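The genes described here are the long noncoding RNAs named as small nucleolar RNA (snoRNA) host genes, taken from the table by symbol: every SNHG gene with a number, together with GAS5, ZFAS1, DANCR and EPB41L4A-AS1. The rule found 32 of the 60664 genes in the table. Of these, 30 had a mean of at least 1 TPM (a transcript level scaled for gene length and for library size) over the 6 libraries. Counts of members in the main comparison are over these 30, while the snoRNA counts, the promoter counts and the summed level start from all 32. The other 2 were SNHG31, listed between 0 and 0.13 TPM, and SNHG27, listed at 0 in 5 libraries and at 0.07 TPM in the sixth. The cells were 67R cells, a line derived from NCI-H1975 lung adenocarcinoma cells by exposure to rising doses of the EGFR inhibitor ASK120067, so every library carries that resistant background. In 3 libraries the cells had received a negative control siRNA (siNC, labelled NC) and in 3 an siRNA against BCAT1 (siBCAT1), the cytosolic enzyme that starts branched-chain amino acid breakdown, delivered with Lipofectamine RNAiMAX. The study's methods give the name siBCAT1 to a single siRNA, the labels give no sequence or harvest time, and effects of this siRNA on other targets cannot be told apart from those of losing BCAT1. Nothing in the labels says whether the 3 libraries of a group came from separate cultures, so the p-values measure the spread between these libraries, which may be technical.

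A snoRNA host gene carries snoRNAs in its introns: splicing removes the intron, the intron is opened and trimmed, and the snoRNA left over joins its core proteins to form a snoRNP. Box C/D snoRNAs guide 2′-O-methylation and box H/ACA snoRNAs guide pseudouridylation, mostly of ribosomal RNA, while the related scaRNAs guide the same changes on spliceosomal RNAs in Cajal bodies. The spliced host RNA is a separate product. Several hosts are known to begin with a run of pyrimidines like ribosomal protein mRNAs, and several, GAS5 and SNHG1 among them, are removed by nonsense-mediated decay when translated, so their levels depend on transcription and on decay.

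In the RefSeq annotation (GRCh38.p14), 147 named snoRNAs or scaRNAs lay inside 30 of the 32 genes, of which 121 were box C/D, 22 box H/ACA and 4 scaRNAs. SNHG14, the long transcript of the imprinted SNRPN region with its SNORD115 and SNORD116 arrays, held all but 64 of them. SNHG28 and SNHG27 held none. The 4 members that passed the test described further on, SNHG16, SNHG18, SNHG26 and SNHG30, are hosts of box C/D snoRNAs only. Their snoRNAs are shown here because they are what distinguishes the hosts. In each sequence, read 5′ to 3′ as DNA from GENCODE release 29, capitals mark GATG, the core of box C near the 5′ end, and the last CTGA, box D near the 3′ end. In the 3 snoRNAs of SNHG16 capitals also mark the longest run that all 3 share, 17 bases that end on a further CTGA and the base after it. SNORD1A (chr17:76561634-76561705), SNORD1B (chr17:76561109-76561192) and SNORD1C (chr17:76558791-76558868) lie in SNHG16 and guide methylation of 28S ribosomal RNA. SNORD123 (chr5:9548836-9548905) lies in SNHG18. SNORD93 (chr7:22856613-22856686), a guide for 18S ribosomal RNA, lies in SNHG26, and SNORD7 (chr17:35573657-35573753), a guide for the U6 spliceosomal RNA, in SNHG30. All 6 are on the plus strand.
SNORD1A: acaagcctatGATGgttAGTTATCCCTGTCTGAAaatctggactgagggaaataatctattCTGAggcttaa
SNORD1B: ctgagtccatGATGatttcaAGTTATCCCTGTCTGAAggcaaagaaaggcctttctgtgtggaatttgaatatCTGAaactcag
SNORD1C: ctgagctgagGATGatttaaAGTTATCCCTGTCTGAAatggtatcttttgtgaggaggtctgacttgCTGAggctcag
SNORD123: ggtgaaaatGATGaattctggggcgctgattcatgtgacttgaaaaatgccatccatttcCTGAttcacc
SNORD93: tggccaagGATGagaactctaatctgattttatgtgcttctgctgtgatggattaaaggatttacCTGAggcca
SNORD7: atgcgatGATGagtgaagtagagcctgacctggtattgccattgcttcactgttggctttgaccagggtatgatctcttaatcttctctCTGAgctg

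The start sites of the same 4 genes are shown because the host genes are known for their pyrimidine starts. Each stretch runs from 80 bases before to 50 bases after the RefSeq start (GRCh38.p14, plus strand), at chr17:76557684-76557813 for SNHG16, chr5:9546120-9546249 for SNHG18, chr7:22854160-22854289 for SNHG26 and chr17:35568034-35568163 for SNHG30. Capitals mark the longest unbroken run of C and T that reaches within 20 bases of the start, where it holds at least 8 bases, and any CACGTG, the E-box bound by MYC family factors.
SNHG16: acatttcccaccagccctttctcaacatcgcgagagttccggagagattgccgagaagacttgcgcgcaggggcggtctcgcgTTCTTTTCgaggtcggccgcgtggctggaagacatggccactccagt
SNHG18: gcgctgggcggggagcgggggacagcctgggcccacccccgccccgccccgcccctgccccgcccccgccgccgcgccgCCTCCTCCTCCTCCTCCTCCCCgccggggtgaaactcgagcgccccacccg
SNHG26: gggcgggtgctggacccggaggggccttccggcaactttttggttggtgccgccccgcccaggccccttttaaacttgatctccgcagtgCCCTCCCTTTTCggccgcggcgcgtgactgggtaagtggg
SNHG30: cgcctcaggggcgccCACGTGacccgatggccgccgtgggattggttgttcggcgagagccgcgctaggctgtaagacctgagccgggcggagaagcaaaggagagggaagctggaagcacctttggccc
The run was 8 bases long in SNHG16, 22 in SNHG18 and 12 in SNHG26, and no run of that length was found in SNHG30, which held the E-box. Promoter windows of 300 bases were found for 28 of the 32 genes. A run of at least 8 bases was present in 9 of the 28 (32.1%) and in 21.9% of all 35116 promoters. GAS5, with a longest run of 4 bases, and SNHG1, with 7, were not among the 9. These counts hold for the RefSeq starts only. GAS5, on the minus strand, starts at chr1:173869045 in RefSeq and at chr1:173868882 in GENCODE release 29, and the latter start was not scanned. A pyrimidine start of GAS5 there would have been missed. CACGTG, which reads the same on both strands, was present in 2 of the 28 (7.14%), SNHG30 and SNHG7, and in 7.26% of all promoters.

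TPM summed to between 992512 and 995593 per library, with 23152 to 25043 genes above 0, and read depth is unknown because TPM does not keep it. BCAT1 itself was at 42.7, 42.2 and 29.8 TPM in siNC and at 8.78, 7.10 and 8.0 TPM in siBCAT1 (log2 fold change -2.12, SE 0.15, adjusted p = 0.000272). Epithelial keratins were high and the endothelial markers summed to at most 2.61 TPM, but the lung marker NKX2-1 was listed between 0 and 0.10 TPM and EPCAM between 0.91 and 2.61 TPM, and of the fibroblast and leukocyte markers DCN, LUM and CD3E were at 0 in every library while COL1A2 and CD68 were not. The summed epithelial markers ranged from 2546 to 2948 TPM in siNC and from 1647 to 1935 TPM in siBCAT1, the fibroblast markers from 248 to 267 and from 187 to 243 TPM, and the leukocyte markers from 30.3 to 39.2 and from 53.5 to 60.7 TPM. The part of these differences in the results below was not tested.

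Across the 30 members the level spanned from SNHG29, with a mean of 608 TPM, to SNHG28, with 1.10 TPM. Of the 30, 9 had a mean of at least 100 TPM, 13 lay between 10 and 100 TPM and 8 between 1 and 10 TPM. The sum over all 32 members was 2651, 2846 and 2749 TPM in siNC and 2686, 2733 and 2577 TPM in siBCAT1, so the groups overlapped. The 6 most abundant members supplied 63.8% to 70.0% of that sum. The order of the top 5 in siNC was SNHG29, GAS5, SNHG5, SNHG6 and ZFAS1, and SNHG5 and SNHG6 were the only neighbours of these 5 whose siNC libraries overlapped.

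**Figure D1:**
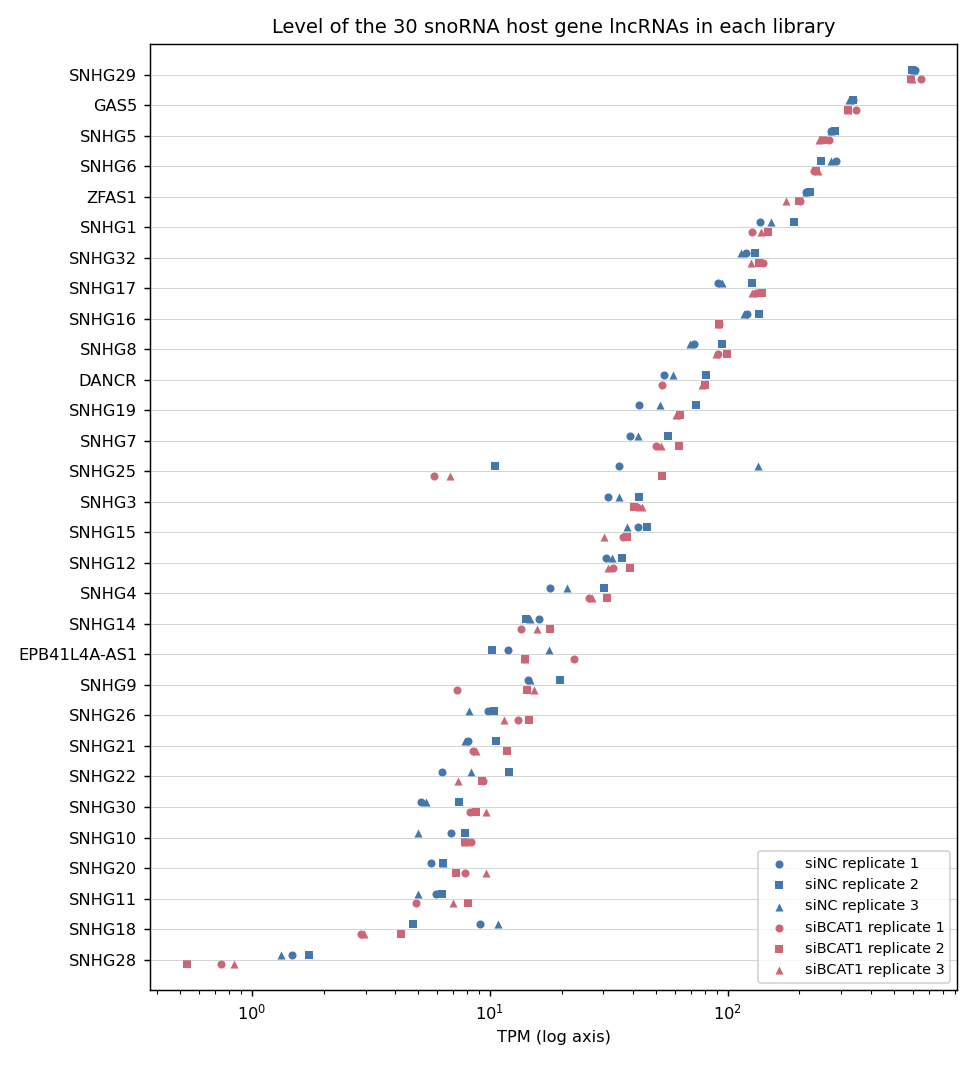
TPM (log axis) of the 30 members in each of the 6 libraries, siNC in blue and siBCAT1 in red, with a marker shape for each replicate number. Members are ordered by mean level from SNHG29 (608 TPM) to SNHG28 (1.10 TPM), SNHG25 is scattered from 5.82 to 134 TPM, and the siNC replicate 2 square is the highest siNC point in 23 of the 30.

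The question the comparison answers is which transcripts differed after BCAT1 knockdown in resistant cells. Of the 30 members, 4 (13.3%) passed an adjusted p of 0.05 in limma, 2 higher and 2 lower in siBCAT1, while 27.1% of all 14286 genes tested passed (16.7% higher, 10.4% lower). Another 6 members had an unadjusted p under 0.05 without passing after adjustment, 10 in all. The share of all genes under that unadjusted cut-off was not counted, so these numbers have no background beside them. The median log2 fold change of the members was 0.09, against 0.04 for all genes tested, with 19 members above 0 and 11 below. The groups did not overlap in 10 members (33.3%), 4 higher and 6 lower in siBCAT1, where 44.1% of all genes tested had groups that did not overlap. The median standard error of the log2 fold change was 0.13 in the members and 0.13 in all genes tested. The share of members passing was below that of all genes under every setting run but 1: without siNC replicate 2 it was 33.3% beside 25.9% of all genes.

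**Figure D2:**
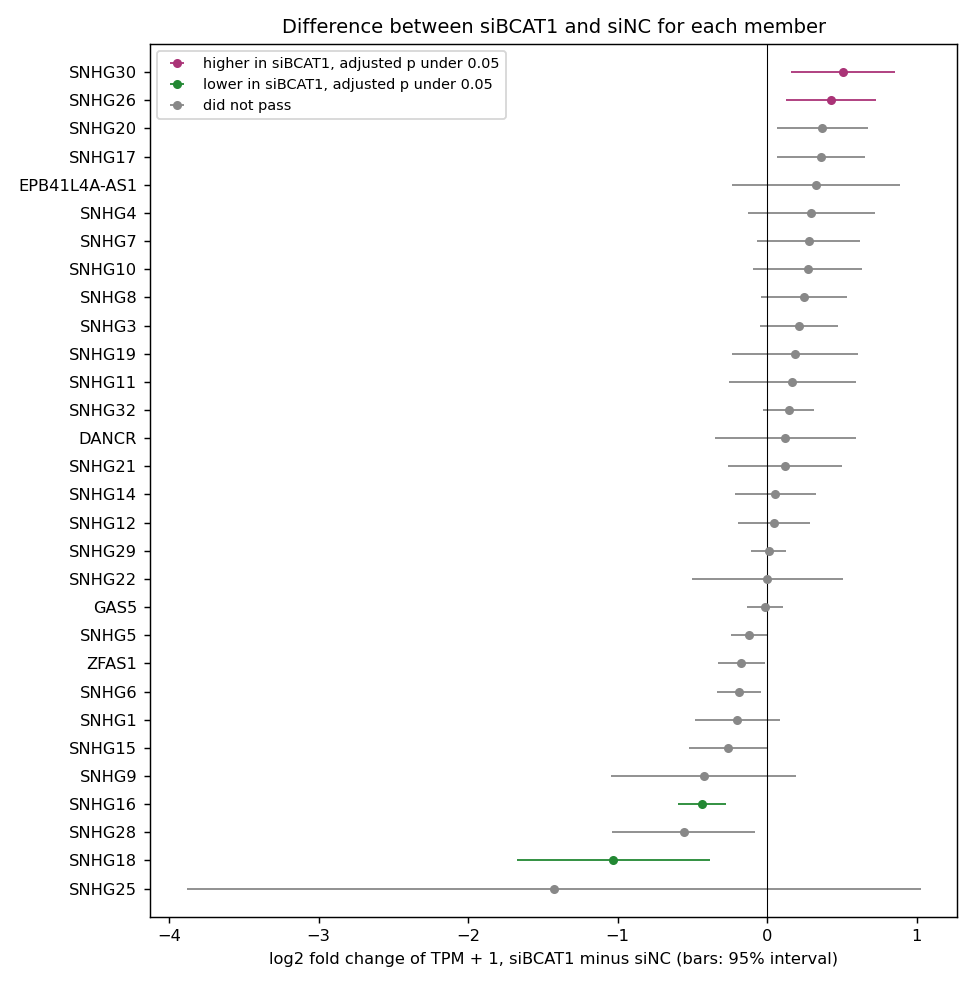
Log2 fold change of TPM + 1 (siBCAT1 minus siNC) for the 30 members, with 95% intervals from limma. SNHG30 and SNHG26 (purple) passed as higher, SNHG16 and SNHG18 (green) passed as lower, and SNHG25 has the widest interval, from -3.88 to 1.03.

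SNHG16, host of the SNORD1 family, fell after BCAT1 knockdown. It was at 120.4, 136 and 117 TPM in siNC (124 ± 9.73, SD, n = 3) and at 92.1, 91.7 and 91.0 TPM in siBCAT1 (91.6 ± 0.58, SD, n = 3). The siNC libraries were all above the siBCAT1 libraries and the siBCAT1 libraries lay within 1.14 TPM of each other. The mean was 26.4% lower (log2 fold change -0.43, SE 0.07, 95% interval -0.59 to -0.27, adjusted p = 0.00421). It was the only member to pass under each of the 14 alternative settings, with log2 fold changes from -0.53 to -0.37. AC015802.4, which starts 83 bases from SNHG16 on the other strand, was listed at or near 0 (group means of 0 and 0.25 TPM).

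SNHG18, host of SNORD123, was the other member that fell. It was at 9.05, 4.75 and 10.8 TPM in siNC and at 2.86, 4.23 and 2.96 TPM in siBCAT1. The groups did not overlap, but siNC replicate 2 came within 0.52 TPM of siBCAT1 replicate 2. The mean was 59.1% lower (log2 fold change -1.03, SE 0.27, 95% interval -1.67 to -0.38, adjusted p = 0.0311). It passed in 6 of 14 alternative settings, the adjusted p ranging from 0.00649 without siNC replicate 2 to 0.123. SEMA5A, a semaphorin gene whose start lies 125 bases away on the opposite strand, had means of 2.72 TPM in siNC and 2.07 TPM in siBCAT1 and did not pass (log2 fold change -0.28, adjusted p = 0.287).

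SNHG26 and SNHG30 were the members that rose. SNHG26, host of SNORD93, was at 9.80, 10.4 and 8.18 TPM in siNC and at 13.1, 14.6 and 11.5 TPM in siBCAT1. Every siBCAT1 library was above every siNC library, and the mean was 38.0% higher (log2 fold change 0.43, SE 0.13, adjusted p = 0.0454). SNHG30, host of SNORD7, was at 5.14, 7.44 and 5.36 TPM in siNC and at 8.21, 8.75 and 9.58 TPM in siBCAT1. These groups did not overlap either, and the mean was 47.9% higher (log2 fold change 0.51, SE 0.15, adjusted p = 0.0413). Both lay close to the threshold: SNHG26 passed in 7 of 14 alternative settings and in none that left out a library, and SNHG30 passed in 6 of 14, its adjusted p reaching 0.141. Both were low in level.

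**Figure D3:**
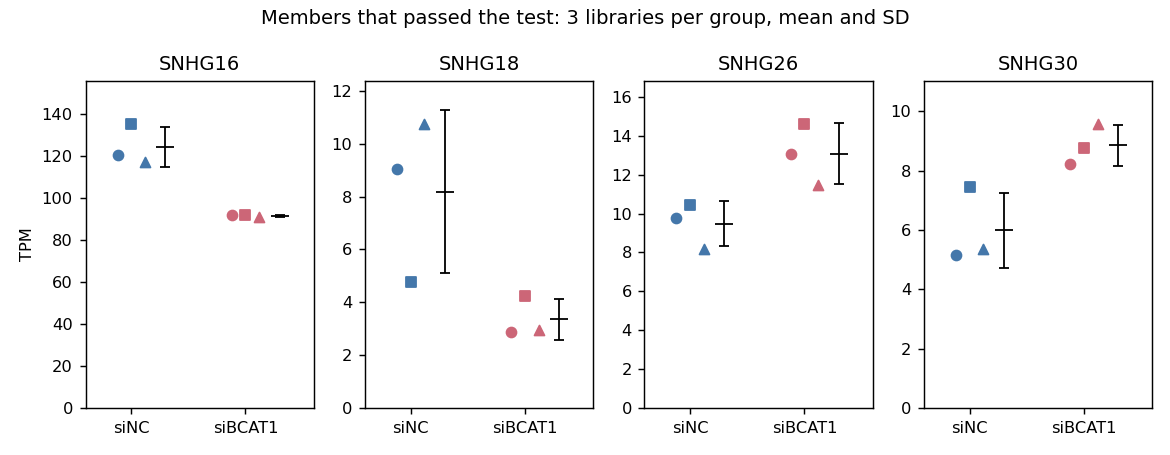
TPM of SNHG16, SNHG18, SNHG26 and SNHG30 in the 3 siNC (blue) and 3 siBCAT1 (red) libraries, each panel from 0 on its own axis, marker shape giving the replicate number and black bars the mean ± SD. The siBCAT1 points of SNHG16 lie between 91.0 and 92.1 TPM, and the gap between the groups is narrowest for SNHG18.

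The most abundant hosts gave the tightest values. SNHG29, host of SNORD49A, SNORD49B and SNORD65, was at 615, 597 and 607 TPM in siNC and at 647, 590.2 and 593 TPM in siBCAT1 (log2 fold change 0.01, 95% interval -0.11 to 0.12). GAS5, whose name comes from its rise on growth arrest and which held 11 named snoRNAs, was at 335, 335 and 324 TPM in siNC and at 346, 319 and 319 TPM in siBCAT1 (log2 fold change -0.02, 95% interval -0.13 to 0.10). In both genes the siBCAT1 libraries lay on either side of the siNC libraries. The intervals limit any difference to within 0.912-fold and 1.09-fold of siNC for these 2 genes, on the TPM + 1 scale. Over the 5 members with a mean of at least 200 TPM, the intervals ran from -0.34 to 0.12.

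SNHG5, SNHG6 and ZFAS1 did not pass the test, although their siBCAT1 values all lay below their siNC values. SNHG5, host of SNORD50A and SNORD50B, was at 270.2, 283 and 271 TPM in siNC and at 266, 252 and 241 TPM in siBCAT1 (log2 fold change -0.12, adjusted p = 0.148). SNHG6, host of SNORD87, was at 285, 246 and 270.2 TPM in siNC and at 229, 235 and 238 TPM in siBCAT1 (log2 fold change -0.19, adjusted p = 0.0671). ZFAS1, host of the SNORD12 family, was at 214, 222 and 213 TPM in siNC and at 202, 199 and 175 TPM in siBCAT1 (log2 fold change -0.17, adjusted p = 0.0971). These differences were small, between 7.86% and 12.4% of the siNC mean. SNHG6 and ZFAS1 passed as lower under median-ratio scaling, and these 2 and SNHG5 under quantile normalization. ZNFX1, whose start lies 248 bases from that of ZFAS1 on the other strand, had means of 31.4 and 35.8 TPM and did not pass (log2 fold change 0.18).

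Among the remaining box C/D hosts, SNHG1, SNHG32, SNHG19, SNHG14 and SNHG25 did not pass. SNHG1, host of 8 named snoRNAs and a known target of nonsense-mediated decay, was at 137, 189 and 152 TPM in siNC and at 127, 148 and 138 TPM in siBCAT1 (log2 fold change -0.20, adjusted p = 0.262). SNHG32, host of SNORD48 and SNORD52, ranged from 113 to 130.4 TPM in siNC and from 125 to 140.3 TPM in siBCAT1 (log2 fold change 0.14). A noncoding gene on its strand and within its span, AL671762.1, ranged from 18.4 to 73.4 TPM, so the division of reads between them is uncertain. SNHG19, host of SNORD60, was at 42.2, 73.5 and 51.6 TPM in siNC and at 62.3, 62.9 and 60.8 TPM in siBCAT1 (log2 fold change 0.19, adjusted p = 0.479). Its siNC libraries lay on both sides of its siBCAT1 libraries. SNHG14 ranged from 13.5 to 17.8 TPM over all libraries (log2 fold change 0.05), and SNRPN, which overlaps it on the same strand, from 50.5 to 62.2 TPM (log2 fold change -0.12), with the same uncertainty. SNHG25, the shortest member at 278 bases, was at 34.7, 10.5 and 134 TPM in siNC and at 5.82, 52.7 and 6.79 TPM in siBCAT1. No group order can be read from these values: the highest library was 23.1 times the lowest, and the interval ran from -3.88 to 1.03. Of the 13 box C/D hosts 4 passed (30.8%, beside 27.1% of all genes), and their median log2 fold change was -0.12, with 6 above 0 and 7 below. The classes rest on RefSeq. GENCODE release 29 also places a box H/ACA snoRNA, SNORA50C, in SNHG25, and without SNHG25 the median was -0.05 over the other 12.

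None of the 10 box H/ACA hosts tested passed in limma, where 27.1% of all genes did, and the difference between the classes was not tested. Of these hosts 2, SNHG17 and SNHG15, had an unadjusted p under 0.05, a cut-off at which all genes were not counted. Without siNC replicate 2, 5 passed (SNHG17, SNHG8, SNHG7, SNHG4 and SNHG3), beside 25.9% of all genes in that fit. The library left out was the highest siNC library in each of these 5. The median log2 fold change of the 10 hosts in the main fit was 0.23, with 8 above 0 and SNHG9 and SNHG15 below. SNHG17, host of the SNORA71 family, was at 90.7, 127 and 94.2 TPM in siNC and at 131, 139 and 127 TPM in siBCAT1 (log2 fold change 0.36, SE 0.13, adjusted p = 0.0718). SNHG3, host of SNORA73A and SNORA73B, the U17 snoRNAs that act in cleavage of ribosomal RNA precursors, was at 31.4, 42.3 and 35.04 TPM in siNC and at 41.5, 40.3 and 43.5 TPM in siBCAT1 (log2 fold change 0.21, adjusted p = 0.206). In both genes siNC replicate 2 was the library that reached the siBCAT1 range. SNHG3 shares its strand and part of its span with RCC1, a nuclear exchange factor that rose (log2 fold change 0.32, SE 0.08, adjusted p = 0.0226), and SNHG4 with MATR3 (log2 fold change 0.23, adjusted p = 0.0516), so reads may have been divided between them in a way the sources used here do not state. SIL1, which overlaps SNHG4 on the other strand, rose from 28.7 to 53.7 TPM (log2 fold change 0.88, adjusted p = 0.000365), beside 23.1 and 28.0 TPM for SNHG4. UBE3A, which overlaps SNHG14 on the other strand, rose from 14.4 to 26.1 TPM (log2 fold change 0.82, adjusted p = 0.00143). DIPK1B, which overlaps SNHG7 on the other strand, fell from 2.49 to 1.16 TPM (log2 fold change -0.70, adjusted p = 0.0292). The remaining genes tested that overlap a member on the other strand did not pass. The library kit keeps strand, but the strand setting used in quantification is not given in the sources used here. DANCR, host of SNORA26, was at 53.8, 80.7 and 59.0 TPM in siNC and at 52.8, 80.4 and 78.0 TPM in siBCAT1, with overlapping groups and an interval from -0.35 to 0.59.

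The other box H/ACA hosts gave overlapping groups. SNHG8, host of SNORA24, was at 71.8, 94.9 and 69.1 TPM in siNC and at 90.5, 98.7 and 88.9 TPM in siBCAT1 (log2 fold change 0.25, adjusted p = 0.176). SNHG7, host of SNORA17A and SNORA17B, was at 39.0, 55.9 and 41.8 TPM in siNC and at 50.1, 62.6 and 52.3 TPM in siBCAT1 (log2 fold change 0.28, adjusted p = 0.207). SNHG4, host of SNORA74A and SNORA74D, was at 17.9, 30.3 and 21.1 TPM in siNC and at 26.1, 30.9 and 26.9 TPM in siBCAT1 (log2 fold change 0.30, adjusted p = 0.269). In each of these siNC replicate 2 was inside the siBCAT1 range and the other siNC libraries were below it. EPB41L4A-AS1, host of SNORA13, spanned 10.2 to 17.7 TPM in siNC and 14.1 to 22.5 TPM in siBCAT1, and SNHG11, host of SNORA60 and SNORA71E, 4.98 to 6.30 and 4.87 to 8.07 TPM. SNHG15, host of SNORA9, was at 41.8, 45.6 and 37.6 TPM in siNC and at 36.2, 37.7 and 30.03 TPM in siBCAT1 (log2 fold change -0.26, adjusted p = 0.126), its groups overlapping by a single library on each side.

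The 4 scaRNA hosts, SNHG10, SNHG20, SNHG21 and SNHG22, were at most at 12.1 TPM and none passed in limma, the lowest unadjusted p being 0.0239 for SNHG20. SNHG20, host of SCARNA16, was at 5.66, 6.33 and 6.36 TPM in siNC and at 7.88, 7.18 and 9.67 TPM in siBCAT1, without overlap (log2 fold change 0.37, SE 0.13, adjusted p = 0.0747). SEC14L1, on the same strand and overlapping it, ranged from 48.8 to 59.5 TPM (log2 fold change -0.20, adjusted p = 0.0515), so the division of reads is uncertain here as well. SNHG10, host of SCARNA13, was also higher in every siBCAT1 library, by 0.01 TPM at the nearest (log2 fold change 0.27, adjusted p = 0.242). SNHG22, host of SCARNA17, starts 63 bases from ACAA2, a mitochondrial enzyme of fatty acid oxidation, on the opposite strand. ACAA2 fell from 42.8 to 32.2 TPM (log2 fold change -0.40, adjusted p = 0.00827) while SNHG22 gave a log2 fold change of 0.00 with an interval from -0.51 to 0.51. GAS5 and SNHG12, which hold both box C/D and box H/ACA snoRNAs, gave log2 fold changes of -0.02 and 0.05, SNHG12 ranging from 30.8 to 38.7 TPM over all libraries. SNHG28, with no named snoRNA, was at 1.47, 1.73 and 1.32 TPM in siNC and at 0.74, 0.53 and 0.84 TPM in siBCAT1, without overlap, and missed the threshold (adjusted p = 0.0842).

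Of the 10 genes that start within 1000 bases of a tested member on the opposite strand, 8 were tested and 1 passed, ACAA2, beside 27.1% of all genes. The other tested neighbours were RPS2 and AC005363.1 beside SNHG9, ZBTB37 beside GAS5, SEMA5A, ZNFX1, TRAF7 beside SNHG19 and SLC3A2 beside SNHG1. RPS2, a ribosomal protein gene 99 bases from SNHG9, was at means of 5641 TPM in siNC and 5155 TPM in siBCAT1 (log2 fold change -0.13), and SNHG9 was at 16.3 and 12.3 TPM (log2 fold change -0.42, adjusted p = 0.277). SLC3A2, the heavy chain of several amino acid transporters 188 bases from SNHG1, was at 293 and 301 TPM (log2 fold change 0.04).

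Among the control libraries, siNC replicate 2 was often the highest in these genes. In 23 of the 30 members (76.7%) siNC replicate 2 was the highest of the 3 siNC libraries, where it was the highest for 34.5% of all genes tested. Set against the mean of the other siNC libraries on the log2 scale, it was higher by a median of 0.19 over the members, against a median of -0.0018 over all genes. It was higher in 24 members, by the most for SNHG22 (0.67), SNHG19 (0.64), SNHG4 (0.61) and DANCR (0.51). It was lower in 6, SNHG25 (-2.59) and SNHG18 (-0.92), which differed most in size of all 30, EPB41L4A-AS1 (-0.48), SNHG6 (-0.17), SNHG14 (-0.11) and SNHG29 (-0.03). Without this library 10 members passed, 7 of them higher (SNHG30, SNHG17, SNHG8, SNHG4, SNHG3, SNHG19 and SNHG7) and 3 lower (SNHG18, SNHG6 and SNHG16). In the same fit 3706 of all genes passed (25.9%). In each of the 7 this library was the highest siNC library, so leaving it out had to raise their log2 fold changes. SNHG17 then gave a log2 fold change of 0.51 (SE 0.06, adjusted p = 0.00389) and SNHG8 0.39 (SE 0.07, adjusted p = 0.0114). Without any other single library 1 member passed, SNHG16, and 2318 to 2503 of all genes passed. The fit without siNC replicate 2 kept siBCAT1 replicate 2. Among the 7 that then passed as higher, siBCAT1 replicate 2 was the highest siBCAT1 library for SNHG17, SNHG8, SNHG4, SNHG19 and SNHG7. For SNHG30 and SNHG3 it was not. Why siNC replicate 2 differed, and whether libraries with the same number share a cause, was not tested.

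**Figure D4:**
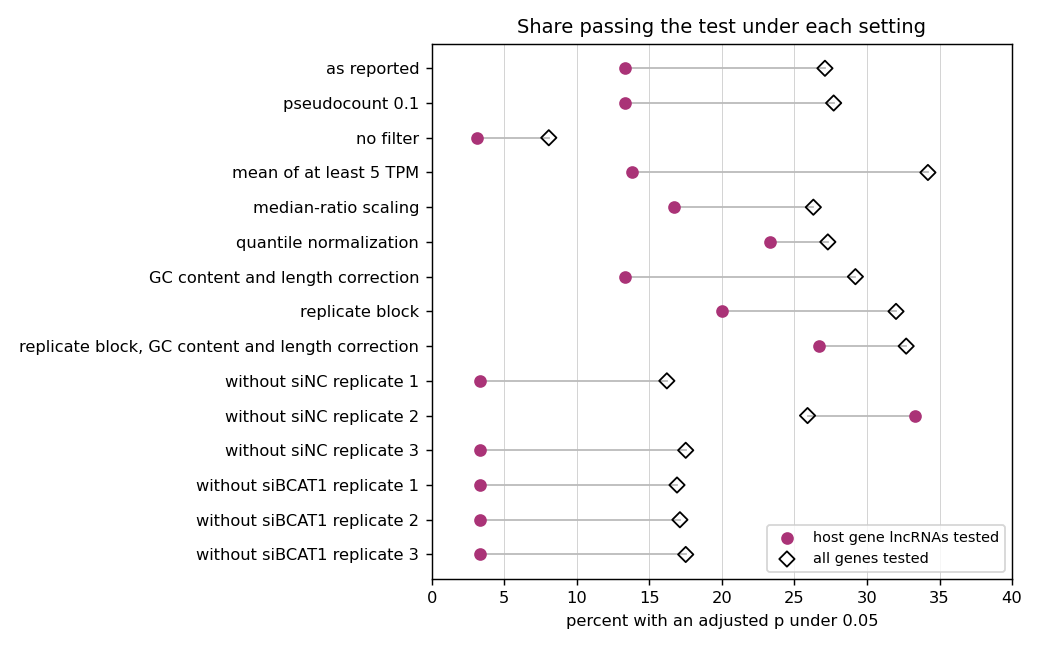
Percent of the host gene lncRNAs tested (filled circles) and of all genes tested (open diamonds) with an adjusted p under 0.05, for the values as reported and for each of the 14 alternative settings. The members lie to the left of all genes in each row except that without siNC replicate 2, where they stand at 33.3% beside 25.9%.

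The machinery around these RNAs was described by lists of genes, as counts beside the 27.1% of all genes. Of the 8 core proteins of snoRNPs, 2 rose and none fell: DKC1, the pseudouridine synthase of box H/ACA snoRNPs, from 119 ± 20.2 to 180 ± 4.32 TPM (SD, n = 3; log2 fold change 0.61, adjusted p = 0.00791), and FBL, the methyltransferase of box C/D snoRNPs, from 267 ± 7.71 to 328 ± 29.2 TPM (log2 fold change 0.29, adjusted p = 0.0219). Of the 12 assembly factors tested, 6 rose and none fell. NOLC1, a chaperone of snoRNPs in the nucleolus, was at 42.9, 47.3 and 33.4 TPM in siNC and at 212, 201 and 198 TPM in siBCAT1 (log2 fold change 2.29, SE 0.12, adjusted p = 0.000138). TCOF1, the nucleolar protein treacle, rose from 26.9 ± 3.08 to 64.8 ± 5.27 TPM (log2 fold change 1.24, adjusted p = 0.000406), and RUVBL1, an ATPase of the R2TP assembly complex, from 95.1 ± 9.0 to 152 ± 1.87 TPM (log2 fold change 0.67, adjusted p = 0.00117). Of the 19 genes tested for snoRNA release and processing, 5 rose and none fell, the largest being the exosome subunits EXOSC8, EXOSC3 and EXOSC7 with log2 fold changes of 0.52, 0.45 and 0.42. Of the 21 nonsense-mediated decay factors, 8 rose and 1 fell. RBM8A and RNPS1, which mark exon junctions, had log2 fold changes of 0.75 and 0.73, and RUVBL1 is counted here too. SMG6, the endonuclease of the pathway, fell from 25.0 ± 2.78 to 16.9 ± 1.72 TPM (log2 fold change -0.54, adjusted p = 0.0136).

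Protein-coding genes that hold a named snoRNA on their own strand were the closest comparison to the members. Of 150 tested, 27 rose and 15 fell (28.0%), with a median log2 fold change of 0.04. The largest rises were in TIPIN, a replication fork protein (1.40), KIF9, a kinesin (0.81), and PPP1R8, a regulator of protein phosphatase 1 (0.74). The largest falls were in ATP2B4, a plasma membrane calcium pump (-1.06), AMMECR1 (-0.47) and COP1, a ubiquitin ligase (-0.32). Of 9 other noncoding hosts, 2 were tested and none passed in limma, with unadjusted p of 0.885 and 0.381.

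**Figure D5:**
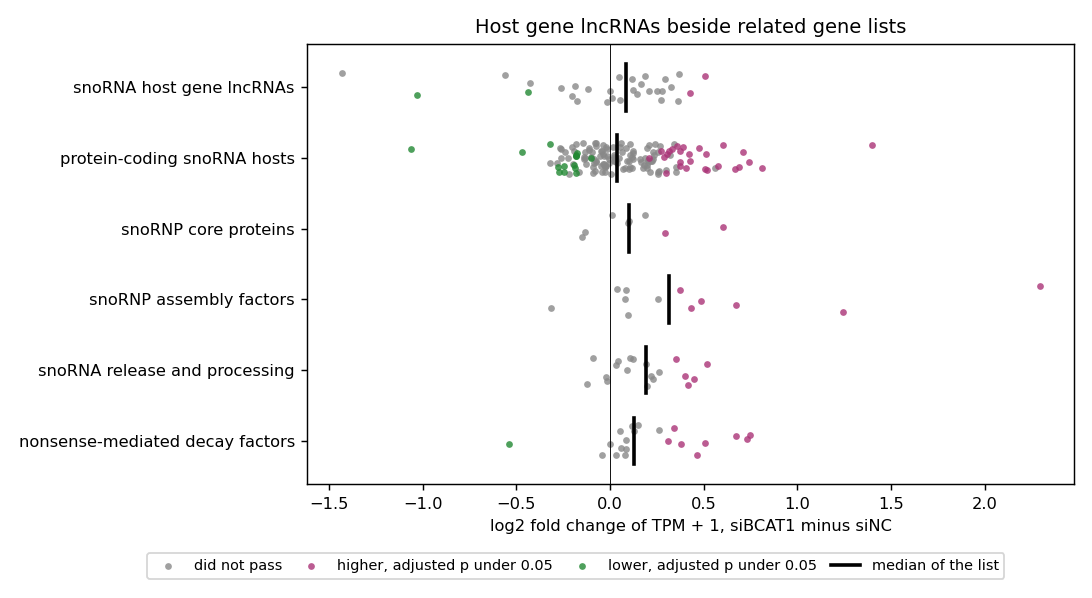
Log2 fold change of TPM + 1 (siBCAT1 minus siNC) of each tested gene in the members and 5 related lists, purple for higher and green for lower with an adjusted p under 0.05, grey for genes that did not pass, and a black bar for the median of the list. The members have 4 coloured points among 30, the assembly factors 6 among 12, and NOLC1 is the point farthest to the right at 2.29.

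The snoRNAs themselves were mostly not seen. Of 136 snoRNA rows of the table that lie inside a member in GENCODE release 29, 122 were at 0 in every library and 14 were above 0 in at least 1. Only SNORA71B in SNHG17 and SNORA73B in SNHG3 were above 0 in all 6 libraries. SNORA71B was at 0.77, 16.5 and 4.29 TPM in siNC and at 7.00, 2.63 and 5.21 TPM in siBCAT1. SNORA73B was at 2.04, 31.6 and 7.19 TPM in siNC and at 2.20, 19.7 and 12.1 TPM in siBCAT1. Groups overlapped in both. The libraries were made with an mRNA kit, and mature snoRNAs carry no poly(A) tail, so the values above describe the host transcripts and not the snoRNAs they release.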

How the data were processed

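Libraries of 67R cells (3 siNC, 3 siBCAT1) were prepared from total RNA with a stranded mRNA kit. Per the labels, reads went through fastp, HISAT2 and StringTie against GRCh38; versions, annotation release and strand setting are not given in the sources used here. The authors deposited TPM per gene for each library in a single table, so values are relative within a library and hold no read depth. No column was left without a sample.

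The 14286 genes whose mean over the 6 libraries reached 1 TPM were compared between the groups by limma 3.58.1 in R 4.3.3, on log2(TPM + 1) (a pseudocount of 1), using lmFit and the trended eBayes moderation. Tests were two-sided, and p-values were adjusted by the Benjamini-Hochberg method over these genes at a threshold of 0.05. Fold changes are on this scale and understate those of low genes. On simulated data for this comparison, 200 of 14286 genes were changed by 1 on the log2 scale. Of these a share of 0.75 was called, none in the wrong direction, and 4 unchanged genes were called. Far fewer genes were changed than passed in the real data, and changes as small as those of SNHG16, SNHG26 and SNHG30 were not simulated. The share therefore does not give the power for such members. Positions came from GENCODE release 29 and RefSeq; all 32 genes matched both by name or identifier. The table's gene models can differ from these: the deposited length of SNHG8, which scales its TPM, is 6165 bases, and its GENCODE release 29 span is 1115 bases. All members were named, with up to 3 rises and 3 falls per related list among genes that passed without overlap, and the divergent neighbours. The members and lists were chosen with earlier results of these data known. Alternatives covered pseudocount, filter, scaling, GC content and length, replicate number and each library left out.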

Additional observations from a re-analysis of the deposited data

How the results depend on the processing

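SNHG16 passed as lower under every setting run, and BCAT1 fell under all of them (log2 fold change without a library from -2.28 to -2.03). The other member calls were less stable. Members higher numbered 0 with no filter on low values and 1 each under median-ratio scaling and quantile normalization. Members lower numbered 1 with no filter, 4 under median-ratio scaling and 6 under quantile normalization, and all calls 1 with no filter and 7 under quantile normalization. Leaving out each library gave 0 to 7 members higher, 1 to 3 lower and 1 to 10 in all. Without siNC replicate 2 there were 10, beside 3706 of all genes, and without any other library 1, beside 2318 to 2503 of all genes. The same fits gave 1 to 3 of the core proteins, 3 to 6 of the assembly factors, 3 to 7 of the release and processing genes, 22 to 47 of the protein-coding hosts and 2318 to 3706 of all genes. With no filter 2567 of all genes, 20 protein-coding hosts and 1 core protein passed, and under median-ratio scaling 1 core protein. The summed level in siBCAT1 stayed between 0.937 and 0.987 times that in siNC.

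Replicate numbers were not treated as pairs in the main fit. Deviations from the group means correlated at 0.084, 0.10 and 0.12 for equal numbers, not all above 0.1. For unequal numbers the correlations ran from -0.081 to -0.013, so every library correlated best with its own number. Within a group the deviations of a gene cancel out, so positive correlations for equal numbers bring negative ones for unequal numbers. The negative values are therefore no separate sign of pairing. The labels do not say whether equal numbers mark pairs, and the main calls take no account of such pairing. With the replicate number as a block, 4 members were higher (SNHG30, SNHG26, SNHG17 and SNHG7) and 2 lower (SNHG16 and SNHG15), SNHG18 no longer passed, 4568 of all genes passed and 1 other noncoding host did. With the block together with GC content and length correction, 5 members were higher, 8 passed in all, and 4 core proteins and 1 other noncoding host passed. The cause of these changes was not tested.

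Members near 0 changed sign, their ranges below being over the fits without a library. SNHG29 was at -0.0399 under median-ratio scaling and -0.0240 under the GC content and length correction with and without the block (range -0.0342 to 0.0322). SNHG22 was at -0.0434 under median-ratio scaling, -0.0075 under quantile normalization and -0.0390 under both GC content and length corrections (range -0.201 to 0.223). SNHG12 was at -0.00047 under median-ratio scaling and -0.0360 under quantile normalization (range -0.0410 to 0.109). Without siBCAT1 replicate 2, SNHG14 was at -0.0340 (range -0.0340 to 0.153) and SNHG21 at -0.0202 (range -0.0202 to 0.241). GAS5 was at 0.0037 and 0.0034 without siBCAT1 replicates 2 and 3 (range -0.0531 to 0.0037). TPM keeps no read depth, so counting error in low members such as SNHG28 and short ones such as SNHG25 could not be given.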
